A study of Mus musculus with 2254 samples.

Results

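Immediate early genes are switched on within minutes of a stimulus, before any new protein is made, and 39 of them were followed here in single brain cells of mice with and without Notch3. The set was named gene by gene and holds transcription factors of the AP-1, EGR, NR4A and KLF families, feedback inhibitors of signalling, RNA decay and growth arrest genes, and the secreted or vascular genes Cyr61 and Apold1. All 39 were found among the 30950 rows of the count table. The cells came from the brains of adult C57BL/6 mice that carried SM22-Cre and the Rosa26-stop-tdTomato reporter, in which the SM22 (Tagln) promoter drives Cre and so marks smooth muscle and whatever other cells have used that promoter. The Notch3 status was KO on plates 043, 467 and 471 (1127 cells), and WT on plates 044, 468 and 469 (1127 cells), and cells of both were sorted singly into plates and sequenced with Smart-seq2, which covers whole polyadenylated transcripts. No animal was named for any cell, so each genotype counted as 1 sample, plates served only to show spread, and no p-value was computed between genotypes. Plates 043 and 044 are called the earlier plates and the other 4 the later plates, from their numbers alone.

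The products of these genes work as a relay. Mitogen-activated kinases and calcium act on factors already bound at their promoters, chiefly serum response factor at CArG boxes and CREB at cyclic AMP response elements (CRE), and the new AP-1 (Fos and Jun) and EGR proteins then act on later genes. Dusp1, Zfp36, Socs3 and Errfi1 close the circuit, by removing phosphate from kinases, destabilising short-lived RNAs, and blocking cytokine and EGF receptors. In vessels and in other tissues the same genes are also known to respond to enzymatic tissue dissociation and cell sorting.

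Each cell held a median of 291872 counts, with a range of 49473 to 763059, and 2252 of 2254 cells passed the minimum of 50000 counts and 1000 detected genes. Levels are given as CPM, the count scaled to the total of the cell. Cells were put into classes by 1 marker gene each at 100 CPM or more, a threshold set after the data were seen, which gave 1174 smooth muscle-like cells (Myh11), 249 astrocyte-like cells (Aqp4), 201 ependymal-like cells (Ccdc153), 181 endothelial-like cells (Cldn5), 173 fibroblast-like cells (Dcn), 42 microglia or macrophage-like cells (C1qb) and 11 pericyte-like cells (Rgs5 alone). In each of the first 6 classes at least 5 of 6 further markers fixed for that class were detected in at least 25% of the cells. Cells with 50 to 200 CPM of the marker numbered 23 for Myh11, 1 for Ccdc153, 21 for Dcn, 20 for Cldn5, 32 for Aqp4, 4 for C1qb and 42 for Rgs5, beside 1259, 204, 208, 249, 447, 56 and 1129 cells at 100 CPM or more. In smooth muscle-like cells Notch3 stood at 68.2, 112 and 117 CPM on the KO plates, against 198, 799 and 1159 CPM on the WT plates, so every KO plate lay below every WT plate, and WT plate 044 lay far below the other 2 WT plates. The plates also differed in makeup: astrocyte-like, endothelial-like and microglia or macrophage-like cells came almost wholly from WT plates 468 and 469.

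The summed level of the 39 genes differed strongly between classes. Microglia or macrophage-like cells had the highest sum, with plate medians of 24246 and 23962 CPM on 2 WT plates. Smooth muscle-like cells followed, with plate medians between 13199 and 23052 CPM on 6 plates (median over plates 15656). These 2 classes did not overlap in their plate medians, and neither overlapped with any class below them. Fibroblast-like cells (median over plates 4488 CPM, plates 1705 to 6554) and endothelial-like cells (4125 CPM, plates 3085 and 5165) could not be ordered within their spread. Ependymal-like cells stood lower, at 1066 CPM with plates between 572 and 3416, which overlapped with the lower fibroblast-like and endothelial-like plates. Astrocyte-like cells were lowest, at 271 and 313 CPM on the same 2 WT plates that held the microglia or macrophage-like cells. Thinning each cell to 50000 counts left the order of the classes as it was, with 15245 CPM in smooth muscle-like cells and 1100 CPM in ependymal-like cells.

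**Figure D1:**
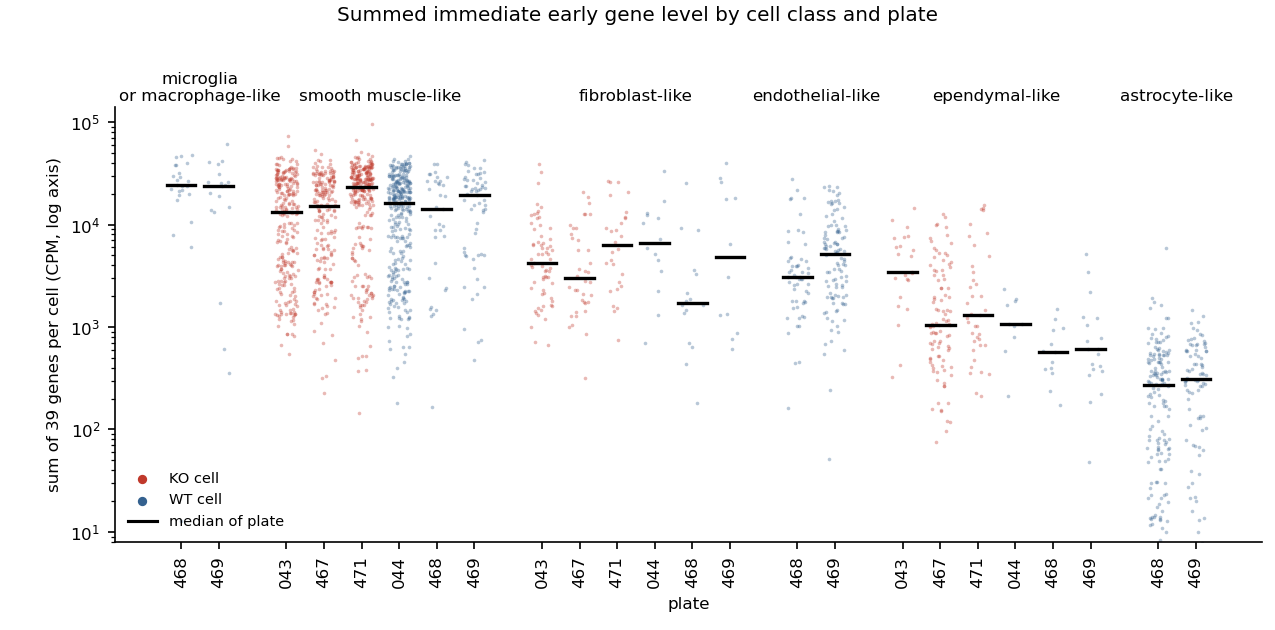
Sum of the 39 genes in each cell (CPM, log axis) by class and plate, one point per cell, with the plate median as a bar; KO cells are red and WT cells blue, and plates with fewer than 10 cells of a class are left out, as are 6 cells below 8 CPM. Smooth muscle-like plate medians lie between 13199 and 23052 CPM and ependymal-like ones between 572 and 3416 CPM.

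Fos alone made up 18.2% of the summed level in smooth muscle-like cells. It averaged 3150 ± 215 CPM over plates (SD, n = 6) there, 3138 CPM in microglia or macrophage-like cells on 2 plates, and 503 ± 461 CPM in ependymal-like cells (SD, n = 6). Per kilobase of exon, which allows genes to be compared, the highest levels in smooth muscle-like cells were those of Fos (1339 CPM per kb), Btg2 (445), Dusp1 (412), Junb (373), Atf3 (353), Zfp36 (323), Cyr61 (307) and Rasd1 (299). Btg2 is an antiproliferative regulator of mRNA deadenylation, Atf3 a stress-induced AP-1 partner, and Rasd1 a small G protein first known for its induction by glucocorticoids. At the other end, Egr3 was nearly absent (a read in 0.341% of smooth muscle-like cells), Fosl1 had a read in 2.64% and Myc in 4.86%.

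Of the 39 genes, 23 had their highest mean in microglia or macrophage-like cells, 11 in smooth muscle-like cells and 3 in endothelial-like cells. Fibroblast-like cells led for 2 genes near the floor, Fosl1 (3.91 CPM) and Egr3 (0.524 CPM). None was highest in ependymal-like or astrocyte-like cells. The means of microglia or macrophage-like, endothelial-like and astrocyte-like cells rest on 2 WT plates, those of the other classes on 6 plates. The AP-1 genes Jun (1286 CPM), Junb (1367 CPM) and Atf3 (2070 CPM) led in microglia or macrophage-like cells, as did Dusp1 (3040 CPM), Zfp36 (2489 CPM), Klf6 (1094 CPM) and Nfkbiz (1503 CPM), a nuclear IkB protein of inflammatory gene control. For Jun the highest fibroblast-like plate was at 1330 CPM, above the microglia or macrophage-like plates at 1261 and 1311 CPM. Smooth muscle-like cells were highest for the nuclear receptors Nr4a1 (898 CPM) and Nr4a2 (83.8 CPM), the phosphatase subunit Ppp1r15a that reverses translational arrest (746 CPM), the EGF receptor inhibitor Errfi1 (949 CPM), the small G protein Gem (185 CPM) and Rasd1 (481 CPM). For Rasd1 every smooth muscle-like plate (318 to 604 CPM) lay above those of the other classes, but the others overlapped. Microglia or macrophage-like plates reached 830 CPM for Nr4a1, 22.7 CPM for Nr4a2 and 568 CPM for Ppp1r15a. The lowest smooth muscle-like plates were at 647, 9.03 and 513 CPM. Fibroblast-like plates reached 1014 CPM for Errfi1 and 76.2 CPM for Gem, against lowest smooth muscle-like plates of 618 and 58.4 CPM. Rasd1 differed most between the 2 high classes, with 0.443 CPM in microglia or macrophage-like cells. Klf4 (251 CPM), a factor induced by flow, Apold1 (410 CPM), known from endothelial cells, and the kinase Sik1 (75.9 CPM) had their highest means in endothelial-like cells. For Klf4 this was within the spread of the microglia or macrophage-like plates, which were at 110 and 355 CPM. For Apold1 and Sik1 this was within the spread of the smooth muscle-like plates, which ran from 160 to 611 CPM for Apold1 and from 15.1 to 154 CPM for Sik1.

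Ependymal-like cells were not a scaled copy of smooth muscle-like cells. The ratio of the mean levels, with 1 CPM added to each, was 158 for Rasd1, 149 for Apold1, 53.4 for Errfi1 and 40.0 for Nr4a1, but 1.81 for Cyr61, 2.33 for Jund and 0.754 for Myc. Cyr61, a secreted matricellular protein, stood at 342 ± 285 CPM in ependymal-like cells, with plates from 0 to 777 CPM, and at 619 ± 168 CPM in smooth muscle-like cells (SD, n = 6 plates each). Its ratio therefore rests on ependymal-like plates that differ widely.

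**Figure D2:**
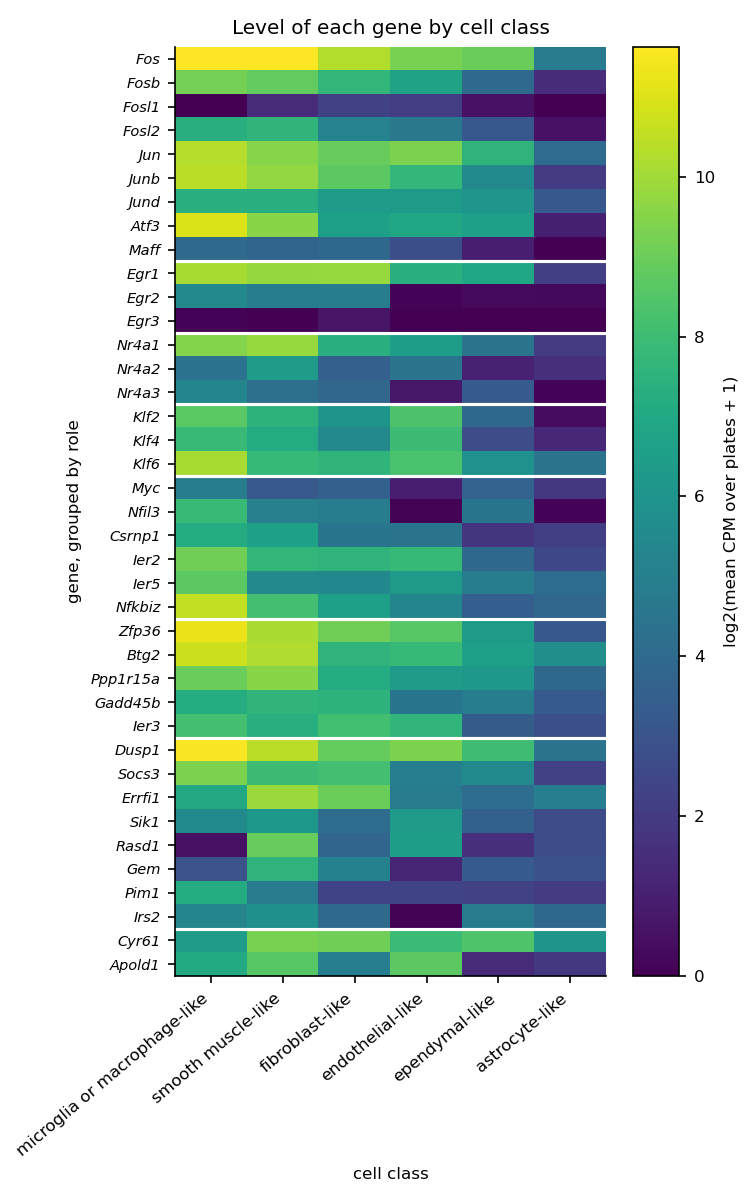
Level of each of the 39 genes (rows, grouped by role, white lines between roles) in 6 cell classes (columns), as log2 of the mean CPM over plates plus 1. Fos is bright in the first 2 columns at 3138 and 3150 CPM, and Rasd1 is dark in microglia or macrophage-like cells at 0.443 CPM and bright in smooth muscle-like cells at 481 CPM.

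Within smooth muscle-like cells the sum ran from 143 to 94854 CPM, with quartiles of 4549, 17223 and 27225 CPM. On a log scale the cells had 1 clear peak, with 261 cells between 23170 and 32768 CPM, and a flat shelf below it, where each of 6 equal steps between 1448 and 11585 CPM held 57 to 73 cells. The spread was present on all 6 plates: the lower quartile of a plate was between 3550 and 9534 CPM and the upper quartile between 25277 and 30994 CPM. The sum had little relation to depth, with a Spearman rho against total counts between −0.33 and 0.25 over the plates.

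Cells with more of the pericyte-type mural genes had less of the immediate early genes. Across smooth muscle-like cells within a plate, the sum correlated negatively with Rgs5, a G protein regulator strong in pericytes and arteriolar cells, on all 6 plates (rho −0.53 to −0.28), and with the summed level of 6 pericyte markers on all 6 plates (−0.51 to −0.36). Of those 6 markers, Vtn (vitronectin) was the strongest, at −0.51 to −0.35. The weakest were Kcnj8 and Abcc9, with a mean rho of −0.14 each, and Abcc9 was positive on plate 044 (0.07). The contractile gene Cnn1 (calponin) ran the other way on all 6 plates (0.17 to 0.56), while Acta2 was near 0 (mean 0.10). The summed smooth muscle markers ranged from 0.02 to 0.50, and Myh11 from −0.13 to 0.57. Like the pericyte markers, the summed endothelial markers were negative on all 6 plates (−0.42 to −0.08). Those of fibroblasts, astrocytes, ependymal cells and microglia or macrophages had both signs over the plates. These are correlations over the 35 to 332 cells of a plate, which share library preparation and sequencing, and they describe the cells and carry no p.

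The same direction was present in both genotypes. Each plate was split into 4 equal parts by Rgs5. In the part with the most Rgs5 the median sum was 4013, 6114 and 15680 CPM on the KO plates, against 6914, 4672 and 4906 CPM on the WT plates. In the part with the least it was 26041, 19719 and 28498 CPM on the KO plates, against 19196, 22208 and 26163 CPM on the WT plates. KO plate 471 kept high sums even among its Rgs5-rich cells; the other 5 plates fell to 6914 CPM or less.

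**Figure D3:**
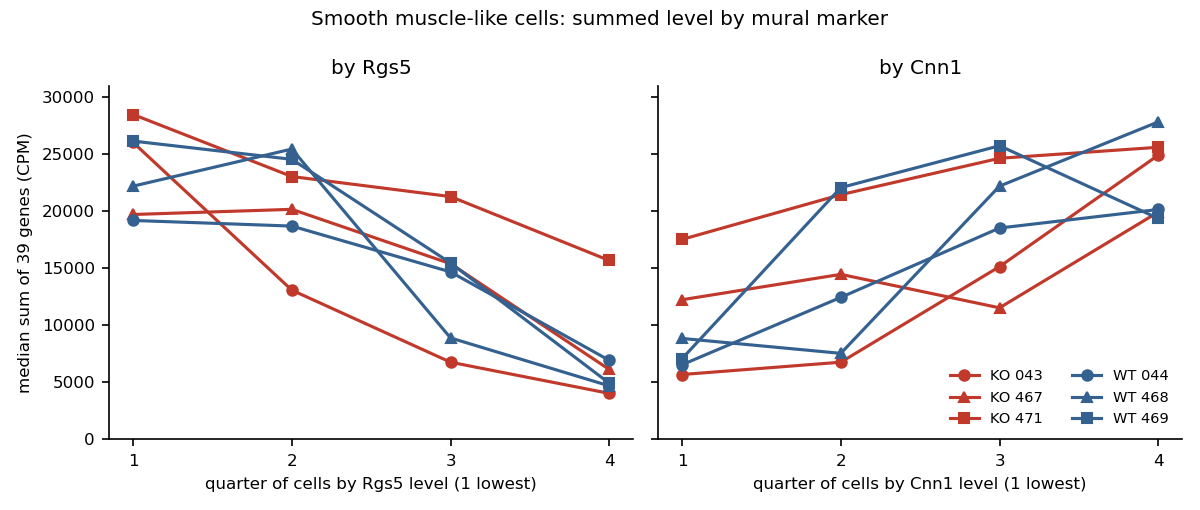
Median sum of the 39 genes (CPM) in smooth muscle-like cells, split within each plate into 4 equal parts by Rgs5 (left) or Cnn1 (right) from the lowest (1) to the highest (4); KO plates are red and WT plates blue. By Rgs5 the sums of all 6 plates are lower in part 4 (4013 to 15680 CPM) than in part 1 (19196 to 28498 CPM). By Cnn1 the median level was 0 in parts 1 to 3 on plate 467. It was also 0 in parts 1 and 2 on plates 043, 471, 468 and 469. Cells tied at 0 were divided without regard to Cnn1, so these lower parts are not ranked by it.

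The genes moved together from cell to cell, but not all of them. In smooth muscle-like cells 33 of the 39 were detected in at least 20% of cells (Fosl1, Egr2, Egr3, Myc, Nfil3 and Maff were not), and the 528 pairs had a median Spearman rho of 0.32 within plates (plate medians 0.31 to 0.38, range over pairs −0.01 to 0.79). The tightest pair was Fos and Junb (0.79, plates 0.68 to 0.83), followed by Btg2 with Junb (0.75) and Jun with Fos (0.74). Average-linkage clustering at a mean rho of 0.25, a level set after the data were seen, left 27 genes in 1 group, led by Junb, Zfp36, Fos and Btg2, whose mean rho with the rest of the group was between 0.53 and 0.56. The other 6 genes stood alone: Cyr61, Irs2, Ier5, Klf6, Nr4a3 and Apold1, with mean rho to all others from 0.14 for Apold1 to 0.21 for Cyr61. Apold1 and Nr4a3 were also the 2 whose mean rho fell below 0 on 1 plate or more (lowest −0.07 and −0.04). A read of Apold1 was found in 60.4% of smooth muscle-like cells and one of Cyr61 in 76.0%, beside 86.3% for Junb.

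The proximal promoters of the 4 leading genes, and of Cyr61 and Apold1 as 2 genes that stood apart, are shown because the known inducible elements lie there. Sequences are from RefSeq on build GRCm38.p6, the 250 bases before the RefSeq start site, 5′ to 3′ on the gene's strand. In the GENCODE M21 annotation used for exon lengths, Zfp36 and Apold1 start farther upstream, so their windows lie within the annotated genes. Capitals mark a match, on either strand, to the CRE (TGACGTCA), to its half-site (TGACG), to an AP-1 site (TGANTCA), to the CArG box or to an EGR site (GCGTGGGCG); the half-site lies within the CRE.
Fos promoter, chr12:85473640-85473889, plus strand: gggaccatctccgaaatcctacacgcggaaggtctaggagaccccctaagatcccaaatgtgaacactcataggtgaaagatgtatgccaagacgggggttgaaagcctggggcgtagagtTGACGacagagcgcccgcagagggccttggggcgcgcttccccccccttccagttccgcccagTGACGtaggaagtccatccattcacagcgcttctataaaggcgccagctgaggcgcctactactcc
Junb promoter, chr8:84978749-84978998, minus strand: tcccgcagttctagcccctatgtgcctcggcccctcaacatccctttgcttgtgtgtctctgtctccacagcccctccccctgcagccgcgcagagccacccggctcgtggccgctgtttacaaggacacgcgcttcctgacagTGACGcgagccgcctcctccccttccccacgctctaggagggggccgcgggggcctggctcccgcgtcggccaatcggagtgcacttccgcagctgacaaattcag
Zfp36 promoter, chr7:28379229-28379478, minus strand: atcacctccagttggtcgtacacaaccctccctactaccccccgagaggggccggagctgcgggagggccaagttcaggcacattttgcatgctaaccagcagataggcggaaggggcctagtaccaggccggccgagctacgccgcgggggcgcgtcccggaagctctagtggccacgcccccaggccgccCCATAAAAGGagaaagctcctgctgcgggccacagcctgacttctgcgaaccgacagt
Btg2 promoter, chr1:134079156-134079405, minus strand: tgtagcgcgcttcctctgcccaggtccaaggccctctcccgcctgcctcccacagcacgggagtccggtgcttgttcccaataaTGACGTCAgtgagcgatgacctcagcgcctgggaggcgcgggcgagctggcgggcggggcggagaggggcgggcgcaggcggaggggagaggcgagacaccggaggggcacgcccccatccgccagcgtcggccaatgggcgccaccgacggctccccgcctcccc
Cyr61 promoter, chr3:145649986-145650235, minus strand: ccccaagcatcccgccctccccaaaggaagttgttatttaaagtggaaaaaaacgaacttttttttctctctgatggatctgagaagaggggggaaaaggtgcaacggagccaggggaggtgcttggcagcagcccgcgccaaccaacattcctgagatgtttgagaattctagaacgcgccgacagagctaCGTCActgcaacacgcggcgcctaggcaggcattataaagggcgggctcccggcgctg
Apold1 promoter, chr6:134981751-134982000, plus strand: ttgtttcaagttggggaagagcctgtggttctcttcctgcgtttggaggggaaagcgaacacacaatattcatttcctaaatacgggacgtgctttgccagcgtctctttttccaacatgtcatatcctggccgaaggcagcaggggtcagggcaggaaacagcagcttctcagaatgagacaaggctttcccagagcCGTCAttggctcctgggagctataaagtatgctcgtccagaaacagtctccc

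Btg2 held a full CRE, Fos held 2 half-sites, and Junb, Cyr61 and Apold1 held 1 each, so that a half-site did not separate the genes that moved together from the 2 that did not. Zfp36 held a CArG box and no CRE half-site. Of the 39 genes, 30 had a promoter in the table, with 41 windows in all. The half-site was present in 61.0% of these windows and in 17.8% of all 32851 promoter windows, the full CRE in 12.2% and 1.55% (Btg2, Dusp1, Ppp1r15a, Maff and Errfi1), and the CArG box in 12.2% and 1.47% (Egr2 and Zfp36). AP-1 matches were present in 2.44% of the windows (Csrnp1) and in 6.75% of all, and EGR matches in 2.44% (Maff) and 0.536%. The windows of the 30 genes had a median GC content of 64.4%, against 52.4% over all windows, and several genes had more than 1 overlapping window. A match is a description of letters, and sites farther upstream were outside the window.

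In ependymal-like cells the correlations were lower. Only the 3 KO plates held the 20 cells required, 25 genes passed the detection limit, and the 300 pairs had a median rho of 0.16 (plates 0.15 to 0.19); over the same 300 pairs smooth muscle-like cells had 0.39, and 261 pairs were higher there. The ependymal-like median depended on low genes. It was 0.32 over the 11 genes detected in at least 50% of cells. In thinned cells it was 0.31, over the 17 genes that still passed the 20% limit. Of the 25 genes, 15 formed 1 group, led by Fos, Fosb, Cyr61 and Jun, with mean rho to the group between 0.41 and 0.48. The tightest pair was Fos and Cyr61 (0.67, plates 0.60 to 0.73), then Fos and Jun (0.61). Cyr61 was thus among the leading genes in ependymal-like cells, where its mean rho with the 24 others was 0.30, and stood apart in smooth muscle-like cells, with 0.22 over the same genes. Rasd1 (−0.04), Errfi1 (−0.03) and Apold1 (0.01) had a mean rho near 0 in ependymal-like cells, where their levels were also low. Single pairs were not all near 0: Rasd1 with Gadd45b was at −0.32 (plates −0.54 to −0.18), the lowest of the 300 pairs, and Errfi1 with Nfkbiz at −0.18 (plates −0.24 to −0.10). Of the 39 genes 10, among them Jun, Junb, Jund, Dusp1 and Zfp36, share exon sequence with a gene on the opposite strand, and the sources do not state whether strand was used in counting.

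**Figure D4:**
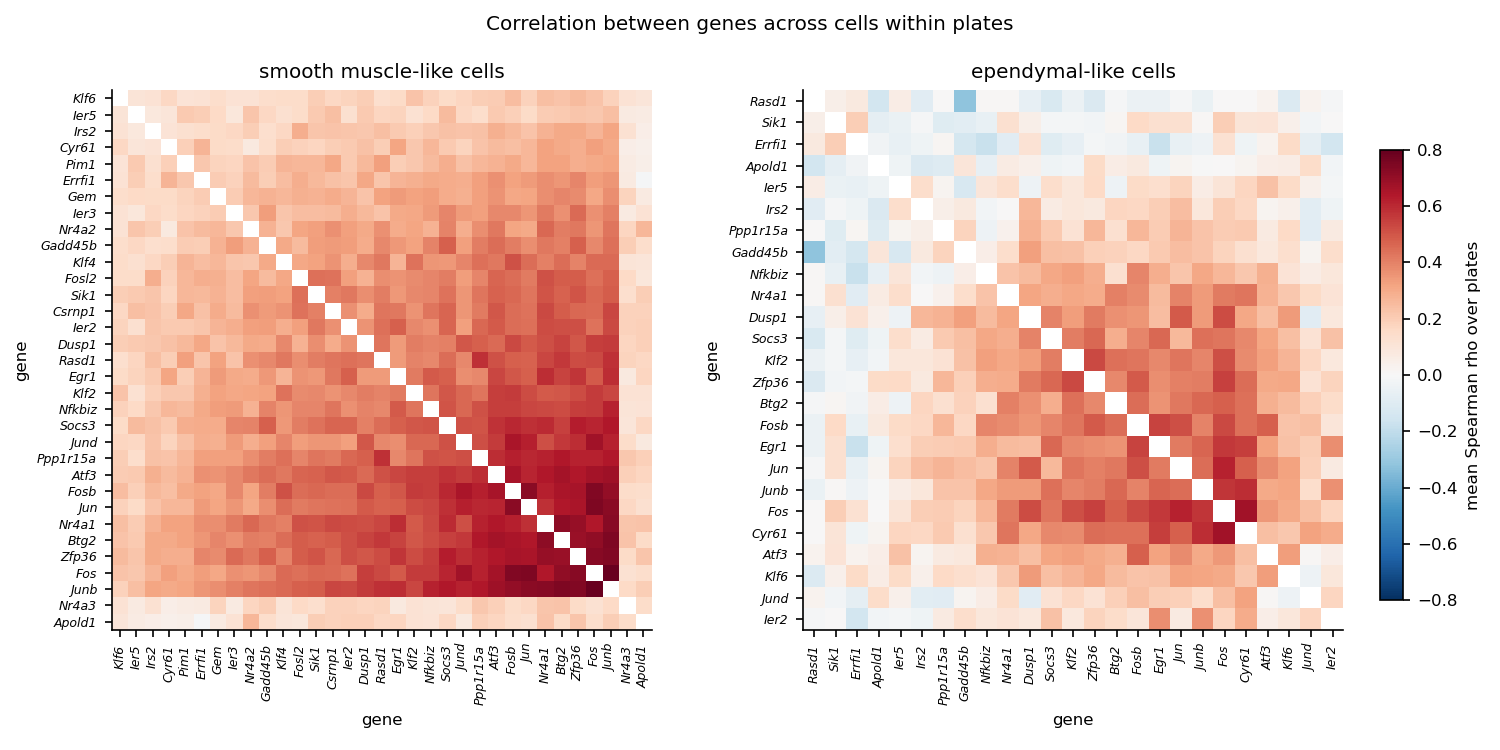
Mean Spearman correlation over plates between genes across smooth muscle-like cells (left, 33 genes, 6 plates) and ependymal-like cells (right, 25 genes, 3 plates), ordered by clustering. The dark block at the lower right of the left panel holds Fos and Junb (0.79), and the right panel has its darkest cells between Fos, Cyr61 and Jun (0.67 and 0.61).

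The comparison that the labels define is KO against WT. For it the counts of a class were summed per plate and scaled (TMM), and a gene was counted as higher or lower when the mean over plates was at least 10 CPM, at least 10% of cells of either genotype had a read, the difference was at least 2-fold and no KO plate overlapped with a WT plate. Differences are on the log2(CPM + 1) scale, KO minus WT, which depends on the added 1 CPM for low genes.

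In ependymal-like cells the 39 genes together were higher on every KO plate than on any WT plate. The sum was 5436, 2328 and 3435 CPM on the KO plates (mean 3733 ± 1576), against 1318, 635 and 1072 CPM on the WT plates (mean 1008 ± 346; SD, n = 3 plates each), a difference of 1.87, or 3.64-fold. It was 2.04 between the earlier plates and 1.78 between the later ones. Of the 39 genes 26 were measured, and 11 were higher and 2 lower in KO, where 4.21% and 1.47% of all 10903 measured genes met the same rule in each direction. A gene can pass the level filter through KO alone: of the 17 genes with at least 10 CPM in both genotypes, 6 were higher, against 2.31% of all such genes. Over all 39 genes, 33 had a positive and 5 a negative difference of any size (median 1.36). Of all measured genes 62.0% were positive, with a median of 0.17.

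Of 6 measured AP-1 genes 3 met the rule, as did the 1 measured EGR gene. Among these, Junb and Fosb were under 10 CPM on every WT plate and so passed the level filter through KO alone. Fos stood at 1349.9, 587 and 733 CPM on the KO plates, against 146, 27.6 and 264 CPM on the WT plates, a difference of 3.01. Egr1 stood at 375, 147 and 256 CPM on the KO plates, against 4.31, 2.1 and 33.5 CPM on the WT plates, a difference of 4.87 that was the largest of the 39. For both genes the lowest KO plate lay more than 2-fold above the highest WT plate. Junb (4.25; 150.2, 38.6 and 110.2 CPM in KO, against 7.28, 0.525 and 6.72 CPM in WT) and Fosb (3.46; 13.8, 32.2 and 42.0 CPM in KO, against 0, 2.89 and 3.08 CPM in WT) did likewise. Jun was measured at 500.1, 141 and 199 CPM in KO, against 156, 99.0 and 100.4 CPM in WT, and the plates overlapped. Atf3 was at 142, 65.4 and 193 CPM in KO, against 91.1, 76.2 and 35.4 CPM in WT, also with overlap. Jund, the AP-1 gene that is expressed constitutively, differed by 0.14.

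Among the feedback and RNA decay genes, Dusp1, a phosphatase of MAP kinases, had 753, 335 and 320.0 CPM on the KO plates, against 121, 58.0 and 88.0 CPM on the WT plates, a difference of 2.33. Zfp36, which binds AU-rich RNAs for decay, had 191, 85.5 and 158 CPM in KO, against 14.8, 35.5 and 16.4 CPM in WT (2.68). Btg2 had 308, 84.1 and 157 CPM in KO, against 40.7, 0.525 and 19.2 CPM in WT (3.89). All 3 were separated by plate. Socs3 (2.73), Nfkbiz (2.92), Nr4a1 (3.70) and Ier2 (4.41) also met the rule. Ier2 was at most 0.539 CPM on any WT plate and between 22.6 and 38.1 CPM on the KO plates. Nfkbiz, Nr4a1 and Ier2 had WT means under 10 CPM and so passed the level filter through KO alone. The 2 genes in the other direction were Myc, with 2.60, 2.61 and 4.97 CPM in KO, against 24.0, 27.1 and 13.7 CPM in WT (−2.35), and Sik1, with 1.61, 12.1 and 9.36 CPM in KO, against 14.6, 22.1 and 12.9 CPM in WT (−1.27). Both had a KO mean under 10 CPM (3.39 CPM for Myc and 7.67 CPM for Sik1) and passed the level filter through WT alone. A Myc read was found in 3.77% of KO cells and 21.4% of WT cells, and the nearest Sik1 plates were 12.1 CPM in KO and 12.9 CPM in WT.

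**Figure D5:**
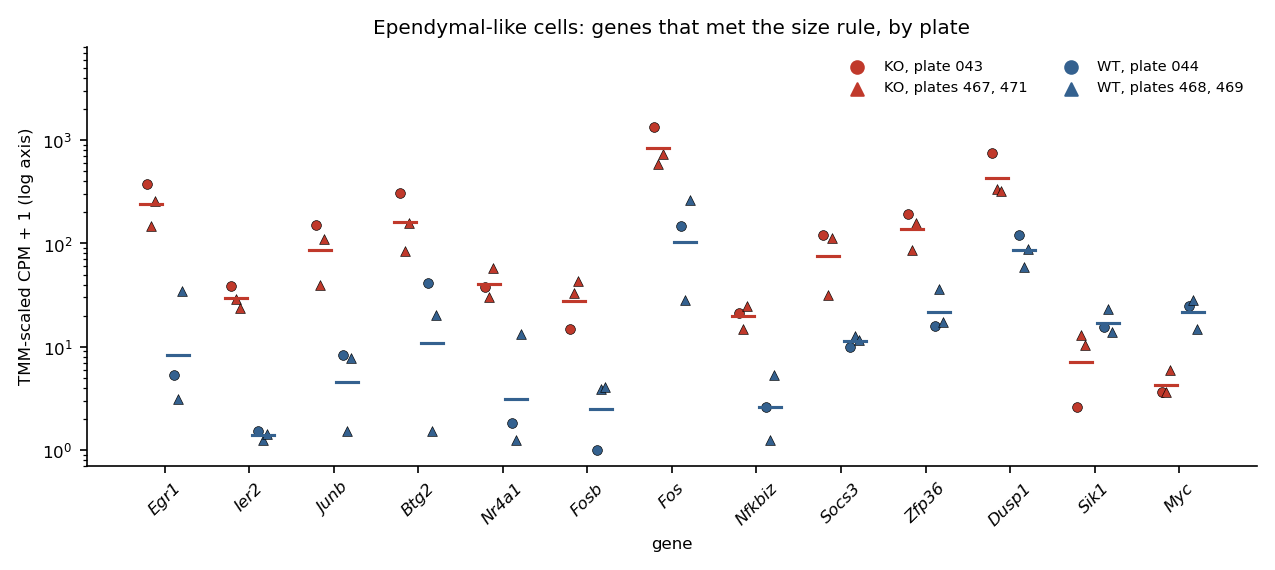
TMM-scaled CPM plus 1 (log axis) of the 13 genes that met the size rule in ependymal-like cells, one point per plate, KO in red left of WT in blue, with circles for the earlier plates and a bar for the mean of the log values. The first 11 genes are higher on all 3 KO plates (Fos 587 to 1349.9 CPM, against 27.6 to 264 CPM in WT), and Sik1 and Myc are lower.

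The cells behind these values were few and unequal, with 23, 97 and 39 ependymal-like cells on the KO plates and 10, 13 and 19 on the WT plates. Cell by cell, the medians of the sum were 3416, 1055 and 1299 CPM on the KO plates, against 1078, 572 and 603 CPM on the WT plates, and here KO plate 467 lay within the WT range. The share of cells above the median of all ependymal-like cells was 87.0% (95% exact binomial interval 66.4 to 97.2), 47.4% (37.2 to 57.8) and 56.4% (39.6 to 72.2) on the KO plates, against 50.0% (18.7 to 81.3), 15.4% (1.92 to 45.4) and 26.3% (9.15 to 51.2) on the WT plates. The intervals cover counting error only. Depth did not run with genotype: median totals were 350664, 243326 and 381314 counts on the KO plates, against 401433, 313111 and 393466 counts on the WT plates. After thinning to 50000 counts, Egr1 had a read in 65.2%, 35.1% and 48.7% of cells on the KO plates, against 10.0%, 0% and 10.5% on the WT plates; 0 of 13 cells allows a share with a read at this thinned depth of up to 23.1% (3 counts of the total), and unthinned cells of that plate did hold Egr1 reads.

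Markers of smooth muscle moved in part with genotype in these cells. The 6 smooth muscle check markers summed to 1233, 2138 and 1659 CPM on the KO plates, against 1545, 240 and 402 CPM on the WT plates, with none at 0 except 1 on WT plate 468. Without the cells in which a further class was also marked, the data gave a difference in the sum of 1.91 and 14 genes by the rule. A further class counted as marked where the mean of its check markers reached 25% of that class's own median. This left 185 of 201 cells, and cells with lower levels of smooth muscle markers stayed in. The median share of mitochondrial counts was 1.65%, 2.06% and 1.45% on the KO plates, against 1.56%, 1.81% and 1.64% on the WT plates. Cells with 100 CPM or more of Col6a5, a collagen gene, made up 52.2%, 55.7% and 46.2% of the class on the KO plates, against 50.0%, 0% and 0% on the WT plates. Among cells under 100 CPM of Col6a5, present on all plates, KO plates had median sums of 4913, 1022 and 1329 CPM (11, 43 and 21 cells), against 804, 572 and 603 CPM on the WT plates (5, 13 and 19 cells), without overlap. Among cells above it the median was 3377, 1058 and 1173 CPM on the KO plates, against 1623 CPM in 5 cells of WT plate 044. The part of the smooth muscle markers in the difference was not tested.

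In smooth muscle-like cells the sum was 17674, 15489 and 21118 CPM on the KO plates, against 18605, 15877 and 16568 CPM on the WT plates, a difference of 0.08 with overlap; it was −0.08 between the earlier plates and 0.15 between the later ones. Among 36 measured genes 1 met the rule, where 1.43% of 9417 measured genes were higher and 0.637% lower. That gene was Pim1, a serine/threonine kinase induced by cytokines, with 23.9, 54.3 and 57.8 CPM in KO, against 5.51, 7.67 and 13.8 CPM in WT (2.20). The WT mean was 8.99 CPM, so Pim1 passed the level filter through KO, and none of the genes with 10 CPM or more in each genotype met the rule (0.973% of all such genes were higher by it). Apold1 was the other measured gene of the set whose plates did not overlap (8.01% of all measured genes), with 389, 543 and 590.2 CPM in KO, against 358, 139 and 353 CPM in WT, but its difference of 0.94 was under 2-fold and only 0.11 between the earlier plates.

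The 8 genes with the highest level per kilobase all overlapped in smooth muscle-like cells. Fos stood at 3285, 2955 and 2809 CPM on the KO plates, against 3654, 3329.7 and 2819.6 CPM on the WT plates (−0.11). Dusp1 stood at 1472, 1461 and 1315 CPM in KO, against 1623, 1482 and 1068 CPM in WT (0.05), and Btg2 at 1402, 1053 and 1395 CPM in KO, against 1465, 1209.6 and 993 CPM in WT (0.08). Junb (899, 794 and 1115 CPM in KO, against 915, 763 and 793 CPM in WT) and Zfp36 (1379, 974 and 1228 CPM in KO, against 1407, 899.9 and 914 CPM in WT) both differed by 0.17. Atf3 was at 737, 539 and 1254 CPM in KO, against 779, 694 and 696 CPM in WT, with KO plate 471 alone standing high. Cyr61 (947, 789.9 and 511 CPM in KO, against 713, 436 and 487 CPM in WT) differed by 0.45, and Rasd1 (358, 488 and 567 CPM in KO, against 552, 640.1 and 411 CPM in WT) by −0.18. Over the 3 NR4A genes the differences were 0.34, 1.44 and 1.73, each with overlapping plates.

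The share of smooth muscle-like cells above the class median of the mean log2 level was 40.2%, 45.9% and 68.7% on the KO plates, against 44.9%, 42.9% and 52.5% on the WT plates. The mean of 51.6 ± 15.1% in KO and 46.7 ± 5.06% in WT (SD, n = 3 plates each) differed by less than the spread between plates, and 184 of 1174 cells lay within 0.5 of the dividing value. KO plate 471 had the highest share, with a 95% exact binomial interval of 62.9 to 74.1%. That of WT plate 469, 39.3 to 65.4%, overlapped with it, and such intervals cover counting error only.

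In fibroblast-like cells the sum was 6988, 5470 and 8702 CPM on the KO plates, against 9539, 3645 and 12157 CPM on the WT plates (−0.12), and the WT plates enclosed the KO plates. It was −0.53 between the earlier plates and 0.07 between the later ones. The cells numbered 65, 38 and 28 on the KO plates and only 14, 16 and 12 on the WT plates. Of 35 measured genes 2 were higher in KO, where 4.36% of 10660 measured genes were, and none was lower, where 2.05% were. Cyr61 had 907, 649 and 609 CPM in KO, against 609, 366 and 105 CPM in WT (1.31), with the nearest plates 609.11 CPM in KO and 609.00 CPM in WT. Apold1 had 128, 43.3 and 8.32 CPM in KO, against 0.369, 0.255 and 0.206 CPM in WT (4.88). A read was found in 19.8% of KO cells and 9.52% of WT cells. The WT values rest on 2, 1 and 1 counts, so Apold1 passed the level filter through KO alone. Smooth muscle check markers were also higher on every KO plate than on any WT plate. The 6 markers summed to 1764, 1549 and 2156 CPM in KO, against 1209, 348 and 349 CPM in WT. Of them 1 was at 0 on WT plates 468 and 469. Among the KO plates they did not follow the 2 genes. KO plate 471 had the highest marker sum and the lowest Cyr61 and Apold1. The 4 choroid plexus markers did not overlap either, at 200.2, 136 and 207 CPM in KO, against 88.8, 88.1 and 55.3 CPM in WT. Of them 0, 1 and 0 were at 0 in KO and 2, 1 and 3 in WT. The 6 endothelial markers overlapped, at 569, 389 and 718 CPM in KO, against 547, 271 and 154 CPM in WT. The part of these markers was not tested. Without cells in which a further class was also marked the Apold1 difference was 1.22, and neither gene met the rule. Whether the KO minus WT value of ependymal-like (1.87), smooth muscle-like (0.08) and fibroblast-like (−0.12) cells differs between the classes was not tested. No KO plate held 10 endothelial-like cells, so that class was not compared.

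Related genes outside the 39 were read from fixed lists. Of 32 other immediate early and MAPK feedback genes, 1 of 22 measured was higher in KO smooth muscle-like cells (Spry1, an inhibitor of receptor tyrosine kinase signalling, 75.9, 97.1 and 68.1 CPM in KO, against 35.5, 22.6 and 28.9 CPM in WT), 2 of 16 in ependymal-like cells (Spry2 with 1.21 and the survival gene Mcl1 with 1.16) and 1 of 24 in fibroblast-like cells (Dusp6, 1.10), and none was lower. The shares of all measured genes that were higher were 1.43%, 4.21% and 4.36% in these classes. In ependymal-like cells, heat shock gave 1 of 12 (Cryab, a small heat shock protein, 2.59). Cryab had 109, 120 and 103 CPM in KO, against 74.7, 0.263 and 65.0 CPM in WT. The size of its difference rests largely on WT plate 468, with 13 cells. Upstream factors and kinases gave 1 of 12 (Creb1, the CRE-binding factor, 1.09). The unfolded protein, p53 and NF-kB lists gave none of 7, 7 and 4. The medians in that class were 0.51 for the other immediate early genes, 0.24 for heat shock, −0.36 for the unfolded protein response, 0.20 for p53, 0.01 for NF-kB and 0.50 for upstream factors, beside 0.17 for all measured genes.

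In smooth muscle-like cells the NF-kB list gave 2 of 8, the chemokine Cxcl1 (76.5, 63.7 and 68.2 CPM in KO, against 27.5, 0 and 0.0416 CPM in WT) and the NF-kB inhibitor Tnfaip3 (22.7, 20.9 and 63.7 CPM in KO, against 13.7, 8.49 and 10.3 CPM in WT), while heat shock, unfolded protein, p53 and upstream lists gave none, beside 1.43% of all measured genes. Cxcl1 had a WT mean of 9.19 CPM and so passed the level filter through KO. In fibroblast-like cells 1 of 12 NF-kB genes (Nfkb2, 2.12) and 3 of 14 upstream genes (Mapk8, Srf with 2.56 and Mapk7 with 1.09) were higher, beside 4.36% of all measured genes. Mapk8 and Srf (WT mean 6.83 CPM) passed the level filter through KO alone. Mapk8 had 15.3, 47.5 and 38.8 CPM on the KO plates. It had no count on any WT plate, where fibroblast-like cells numbered only 14, 16 and 12. The medians in that class were 1.51 for NF-kB, 0.90 for p53, 0.40 for upstream factors, 0.21 for heat shock, 0.18 for other immediate early genes and −0.13 for the unfolded protein response, beside 0.20 for all measured genes. Across single smooth muscle-like cells, the sum of the 39 genes correlated above 0.3 with 8 of 20 other immediate early genes, 2 of 9 unfolded protein genes, 2 of 7 p53 genes, 1 of 4 NF-kB genes, and none of 13 heat shock genes or 9 upstream genes. Of all 7357 genes detected in 20% of these cells, 1.17% did so, the 39 themselves included.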

How the data were processed

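The deposited values are raw counts per gene and cell, 1 table for 2254 cells. Per the submitters' processing notes the tools were TopHat2 2.1.1, SAMtools 0.1.18 and featureCounts 1.4.6-p5 with mouse build GRCm38/mm10; annotation, strand setting, filters and duplicate handling are not given in the sources used here. Cells were classed by marker CPM; those at 100 CPM or more for more than 1 of the 6 markers other than Rgs5 (103), or for none of the 7 (118), were set aside, and Rgs5 was read only where the other 6 were all below, so that 926 of 1174 smooth muscle-like cells also passed it, and no doublet caller was run. Counts were summed per plate and class with at least 10 cells and scaled by TMM (edgeR 4.0.16, R 4.3.3); DESeq2 1.42.0 size factors were an alternative. With no animals named, no count test was run between genotypes. Correlations are Spearman's, within plates, averaged (SciPy 1.17.1). Exon lengths came from GENCODE M21. The size rule and the correlation step were run on simulated data as a check of the code. The simulated spread between plates was smaller than that of many genes here, so no error rate follows for these data. Genes named are the 8 highest per kilobase in smooth muscle-like cells, those that met the size rule, and further ones chosen after their values were seen. The members and lists were chosen with earlier results of these data known.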

Additional observations from a re-analysis of the deposited data

How the results depend on the processing

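No paired analysis was possible because plates carry numbers but no replicate shared between KO and WT, and no animal is named. Over 151 alternatives of the main results 125 stayed within the limits set for them and 26 moved. The sign of the sum difference changed in 2 alternatives for smooth muscle-like cells (earlier plates, and without KO plate 471) and 5 for fibroblast-like cells (later plates, mean of log2 over genes, and without KO plate 467, WT plate 044 or WT plate 469), both small values with overlapping plates, and in 0 for ependymal-like cells; for single genes 1665 of 1755 stayed and 90 moved. In ependymal-like cells the sum difference ranged from 1.55 to 2.16 when 1 plate was left out, and the number of genes by the size rule (13) from 11 to 19; it was 6 with 10 CPM or more in each genotype, a setting chosen after seeing the data. In smooth muscle-like cells the sum difference ranged from −0.04 to 0.19 without 1 plate and was 0.26 as the mean of log2 over genes, and the count (1) ranged from 1 to 4, reaching 4 without KO plate 043 or WT plate 044; it was 5 on the later plates, 2 with no filter on low values and 0 with 10 CPM in each genotype. In fibroblast-like cells the sum difference ranged from −0.61 to 0.23, and the count (2) from 2 to 8, the highest without WT plate 468; it was 1 with DESeq2 size factors, 1 with the gate doubled, 0 without cells in which a further class was also marked, 13 on the earlier plates, 9 on the later plates and 1 with 10 CPM in each genotype. The median correlation in smooth muscle-like cells was 0.41 with detection in 50% of cells (24 genes) and 0.38 on plate 471 alone. In ependymal-like cells it was 0.31 in thinned cells (17 genes) and 0.32 with detection in 50% of cells (11 genes). It was 0.19 there on plate 471 alone. With the gate halved, fibroblast-like cells ranked 4 and endothelial-like cells 3 in the sum. The cause was not tested. All alternatives for endothelial-like KO against WT were not run, since the KO plates held 8, 0 and 2 such cells.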

Other observations

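Cells that no class took were spread widely. The 118 cells with no gate marker, 110 of them WT, had a median sum of 677 CPM. The 103 cells with more than 1 gate marker had a median of 9480 CPM, and the 11 pericyte-like cells 1773 CPM. The endothelial-like cells of the KO plates were too few to compare, with a median sum of 5673 CPM in 8 cells of plate 043 and 19808 CPM in 2 cells of plate 471.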
